A study of Homo sapiens with 2 samples.

Results

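The 50 human genes described here encode translation initiation and elongation factors, with the release factors ETF1 and GSPT1 and the poly(A)-binding proteins PABPC1 and PABPC4. They were chosen by symbol from the RefSeq gene table of GRCh38.p14, in which all 50 were found among 19974 protein-coding genes on chromosomes 1 to 22 and X. The remaining 19924 protein-coding genes served for comparison. The data are DEK ChIP-seq peaks of 786-O, a cell line established from a human renal carcinoma. DEK is an abundant nuclear protein that binds chromatin and DNA. The 2 libraries form 1 group: both are replicates of cells with a WT genotype, both carry a negative control label from a Cas9 experiment, and both list DEK as antibody. The labels do not say what the negative control refers to, nor whether the replicates were separate cultures. The spread between them may therefore be technical. No cells with edited DEK, input or other antibody were analysed here, so the comparisons are between genes and between replicates.

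Translation initiation brings the small ribosomal subunit, the initiator tRNA and the mRNA together. EIF2 carries the initiator tRNA and EIF2B reloads EIF2 with GTP, while the large EIF3 complex organises the small subunit. EIF4E binds the mRNA cap, EIF4G is the scaffold and EIF4A the RNA helicase of the cap complex. In elongation, EEF1A delivers aminoacyl-tRNA, the EEF1B subunits reload EEF1A with GTP, and EEF2 moves the ribosome along the mRNA. Many mRNAs of the translation machinery begin with a C followed by a run of pyrimidines, the 5' TOP pattern, through which mTOR signalling and LARP1 control their translation.

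At 5 members a DEK region found in both replicates had its summit (the midpoint of both replicates' summits, as for each shared region below) within 500 bp of an annotated transcription start: EEF1A1, EEF1G, EIF3D, EIF4A1 and EIF4E. Their promoters, from 250 bases before the start to 20 bases after it, are printed because these regions cover 168 to 270 of the 270 bases. The promoter of EEF2 is added as that of an elongation factor without a DEK peak in either library. Sequences are RefSeq reference sequence of GRCh38.p14, 5' to 3' on the strand of the gene. Capitals mark the TOP pattern (a C followed by at least 4 pyrimidines, beginning within 3 bases of the start), the E-box CACGTG, and TATAAA within the 40 bases before the start. The windows are chr6:73521013-73521282, minus strand, for EEF1A1, chr11:62573872-62574141, minus strand, for EEF1G, chr22:36529147-36529416, minus strand, for EIF3D, chr17:7572575-7572844, plus strand, for EIF4A1, chr4:98929114-98929383, minus strand, for EIF4E and chr19:3985444-3985713, minus strand, for EEF2.
EEF1A1: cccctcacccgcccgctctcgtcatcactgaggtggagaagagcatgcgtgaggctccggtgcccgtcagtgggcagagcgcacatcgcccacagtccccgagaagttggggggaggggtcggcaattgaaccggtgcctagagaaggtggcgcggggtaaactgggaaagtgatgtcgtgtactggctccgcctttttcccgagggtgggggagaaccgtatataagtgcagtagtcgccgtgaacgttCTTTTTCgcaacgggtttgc
EEF1G: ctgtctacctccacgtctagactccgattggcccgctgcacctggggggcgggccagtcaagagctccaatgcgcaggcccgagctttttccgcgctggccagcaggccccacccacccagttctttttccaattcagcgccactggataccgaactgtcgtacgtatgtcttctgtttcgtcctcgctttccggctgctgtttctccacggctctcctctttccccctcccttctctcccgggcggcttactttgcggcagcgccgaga
EIF3D: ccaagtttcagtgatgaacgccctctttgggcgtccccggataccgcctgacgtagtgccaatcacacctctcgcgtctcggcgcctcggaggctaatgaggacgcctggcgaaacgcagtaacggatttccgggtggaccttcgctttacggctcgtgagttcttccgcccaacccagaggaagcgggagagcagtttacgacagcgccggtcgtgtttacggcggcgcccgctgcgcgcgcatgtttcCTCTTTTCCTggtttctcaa
EIF4A1: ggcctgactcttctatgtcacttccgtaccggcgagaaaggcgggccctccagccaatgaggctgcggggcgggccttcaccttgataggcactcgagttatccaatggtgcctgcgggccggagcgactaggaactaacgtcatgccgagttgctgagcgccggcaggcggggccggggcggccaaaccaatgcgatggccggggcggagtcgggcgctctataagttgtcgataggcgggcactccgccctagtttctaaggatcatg
EIF4E: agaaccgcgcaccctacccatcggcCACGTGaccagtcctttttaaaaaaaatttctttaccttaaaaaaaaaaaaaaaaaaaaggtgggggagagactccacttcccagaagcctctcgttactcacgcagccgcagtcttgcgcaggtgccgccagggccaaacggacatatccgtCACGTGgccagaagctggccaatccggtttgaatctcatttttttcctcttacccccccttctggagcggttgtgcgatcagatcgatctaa
EEF2: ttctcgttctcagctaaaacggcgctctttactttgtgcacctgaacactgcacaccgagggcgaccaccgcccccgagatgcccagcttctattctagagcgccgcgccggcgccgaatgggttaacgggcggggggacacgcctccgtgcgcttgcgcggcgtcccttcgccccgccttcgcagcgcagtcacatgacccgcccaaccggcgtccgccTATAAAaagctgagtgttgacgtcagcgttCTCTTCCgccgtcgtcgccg
The TOP pattern stands at the start of EEF1A1, EIF3D and EEF2, the E-box occurs at 2 places in EIF4E, and none of the 3 patterns was found in the windows of EEF1G and EIF4A1.

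The authors' peak lists held 19128 peaks in replicate 1 and 24580 in replicate 2, and overlapping peaks of both lists formed 12590 shared regions on the chromosomes used. Fold enrichment is the value the authors gave each peak, a linear ratio over a background whose source is not stated. Its median over the peaks used was 3.99 in replicate 1 and 3.89 in replicate 2. The pileup, which is how many fragments overlapped at a summit, could be recovered from the deposited values, and its median was 19 fragments in each library. A gene without a peak is one where no signal passed the calling threshold with these few fragments.

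Of the 50 members, 15 had a shared region overlapping the gene or its 1 kb flanks, which is 30% (95% Wilson interval 19.1 to 43.8), beside 24.4% (23.8 to 25) of the other protein-coding genes. These 15 genes were EEF1A1, EEF1D, EEF1G, EIF6, EIF2B5, EIF3C, EIF3D, EIF3I, EIF3J, EIF3K, EIF4A1, EIF4E, EIF4G1, EIF4G3 and GSPT1. A further 3, EIF5A, EIF5A2 and PABPC1, had a peak of each replicate that did not overlap the other. Peaks of replicate 1 alone lay at EIF2S2, EIF2B4, EIF3F, EIF4B, EIF4E2 and EIF4G2, and peaks of replicate 2 alone at EIF2B2, EIF3H, EIF3L, EIF4EBP1, EIF4H and ETF1. The other 20 members had no peak in either library. Counted by library, 24 members (48%) had a peak of replicate 1, beside 32.6% of other genes, and 23 (46%) had 1 of replicate 2, beside 37.8%. A peak of either library was present at 30 members (60%), beside 43.4%, and a peak of each, overlapping or not, at 17 (34%), beside 27.1%. All intervals cover counting error only, and no test of the list was made.

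The count differed more at gene ends. A shared region lay within 1 kb of either annotated end of 11 members, 22% (12.8 to 35.2), beside 7.49% (7.14 to 7.87) of the other genes. The members were shorter than other genes, with a median length of 18.0 kb, against 24.2 kb. Weighted to the members' length classes, the other genes had 8.17% at an end and 21.0% in the whole gene with its flanks. Among genes under 10 kb, 4 of 13 members (30.8%) had a shared region in the gene or its flanks, beside 10.3% of other genes, and the shares were 29.2% of 24 members and 19.7% of others from 10 to 30 kb. From 30 to 100 kb they were 30% of 10 members and 30.3% of others, and the 3 members of 100 kb or more had 1 gene with a region, beside 46.1%. The members' share was thus near 30% in each of the first 3 length classes, with wide Wilson intervals (12.7 to 57.6, 14.9 to 49.2 and 10.8 to 60.3). The last 2 of these intervals hold the 19.7% and 30.3% of other genes, whose share rose with length. At gene ends the members had 4 of 13 under 10 kb, beside 8.41% of other genes, 5 of 24 (20.8%) from 10 to 30 kb, beside 9.09%, 2 of 10 from 30 to 100 kb, beside 6.73%, and 0 of 3 at 100 kb or more, beside 4.57%. Inside gene spans the shared summits had similar densities in both sets, 5.59 per Mb in members (exact 95% Poisson interval 2.56 to 10.6, 9 summits in 1.61 Mb) and 5.53 per Mb in other genes (5.40 to 5.66).

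**Figure D1:**
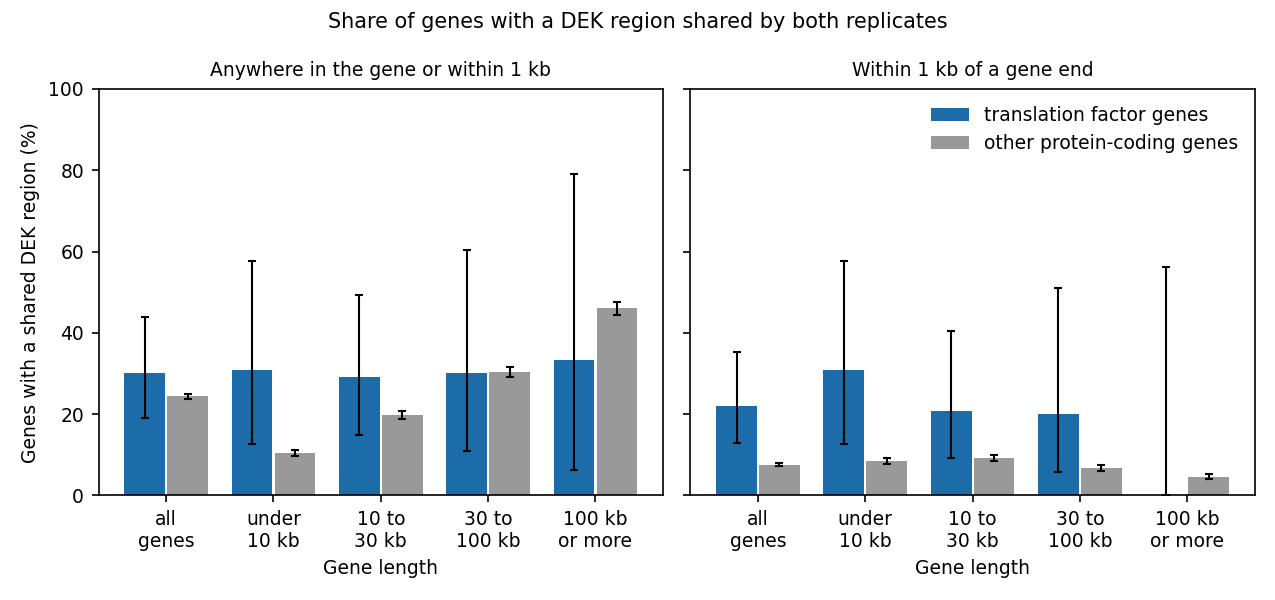
Bars give the percentage of genes with a DEK region shared by both replicates, for translation factor genes (blue) and other protein-coding genes (grey), over all genes and by class of gene length. Error bars are 95% Wilson intervals. In the left panel the members stay near 30% in the first 3 length classes, and in the right panel, within 1 kb of a gene end, they reach 22% over all lengths beside 7.49%.

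Shared regions at the elongation factors lay at the ends of 3 of 8 genes. EEF1A1, which delivers aminoacyl-tRNA to the ribosome, had the highest-ranked region of all members (chromosome 6, 73520956 to 73521517). Its fold enrichment was 5.93 in replicate 1 and 6.73 in replicate 2, with a −log10 q of 14.5 and 20.2 and a pileup of 37 and 45 fragments. The mean was 6.33 ± 0.568 (SD, n = 2), at percentile 94.7 of all shared regions, and the summit lay 116 bp upstream of the start. This was the only member region at which both replicates reached 5-fold. A second EEF1A1 region at the opposite end of the gene (73515705 to 73516251) was the lowest of all 20 member regions, at 2.69 in replicate 1 and 3.003 in replicate 2. The gene is 5.28 kb long, so the strongest and the weakest member regions stand at the ends of the same short gene.

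EEF1G, the gamma subunit of the EEF1B exchange complex, had a region 289 bp upstream of its start (chromosome 11, 62573974 to 62574381), at 3.26 in replicate 1 and 3.89 in replicate 2. The neighbouring gene TUT1 also lies within 1 kb of that region. Replicate 2 alone had a further EEF1G peak of 3.41, 13241 bp downstream of the start. Its −log10 q was 7.14, beside 5.07 for the replicate 2 peak in the shared region. EEF1D, the delta subunit, had a region on chromosome 8 (143595952 to 143596617) at 4.29 and 4.79, and replicate 2 alone had a further peak there of 3.22. EIF5A, which helps the ribosome through difficult sequences, and its paralog EIF5A2 had peaks of both replicates near their starts that did not overlap. At EIF5A the replicate 1 peak (chromosome 17, 7307184 to 7307362) was 4.68-fold, 296 bp downstream of its nearest start. The replicate 2 peak (7308794 to 7309037) was 4.34-fold, 549 bp downstream of a different one of the 6 annotated starts. At EIF5A2 they were 4.73-fold, 194 bp upstream, and 4.65-fold, 1001 bp upstream. EEF2, the translocase, EEF1B2 and the tissue-restricted EEF1A2 had no peak. The nearest shared region was 4699 bp from EEF2 and 4505 bp from EEF1A2.

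EIF3 subunits had shared regions at 5 of 13 genes: EIF3C, EIF3D, EIF3I, EIF3J and EIF3K. EIF3I had 2 of them. The first (chromosome 1, 32220467 to 32221500), at 5.16 in replicate 1 and 3.99 in replicate 2, had its summit 1583 bp upstream of the start and also lay within 1 kb of the neighbour TMEM234. Only its replicate 2 peak reached into the 1 kb flank of EIF3I. The second (32236011 to 32236487) was at 4.64 and 4.80, with its summit 74 bp past the opposite end. EIF3D, a subunit with cap-binding activity of its own, had a region at its start (chromosome 22, 36529156 to 36529565) at 4.46 in replicate 1 and 3.97 in replicate 2, in which the summits of the replicates were 7 bp apart. The regions of EIF3C (chromosome 16, 28693288 to 28693848; 4.81 and 4.94), EIF3K (chromosome 19, 38631766 to 38632059; 4.39 and 3.25) and EIF3J (chromosome 15, 44541643 to 44542006; 3.46 and 3.15) lay inside the genes, 4590 to 12725 bp from the nearest start. Replicate 2 alone had further peaks, of 4.39 at EIF3K and 3.995 at EIF3C. EIF3C has a near-identical copy, EIF3CL, and the sources used here do not say how reads matching both were placed, so its values are uncertain. EIF3F, EIF3H and EIF3L had 1 peak of 1 library each, at 4.15, 3.501 and 4.21. EIF3A, EIF3B, EIF3E, EIF3G and EIF3M had none.

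The cap-binding and poly(A)-binding group had shared regions at 4 of 13 genes and any peak at 10. EIF4G1, the main scaffold of the cap complex, carried 3 regions in 20.8 kb, the most of any member. They stood at 4.33 in replicate 1 and 4.06 in replicate 2 (chromosome 3, 184319291 to 184319521), at 3.24 and 4.59 (184332348 to 184332690), and at 3.47 and 3.61 (184334317 to 184334793). The first had its summit 856 bp upstream of an internal start, and the last 865 bp before the end of the gene. EIF4G3, a paralog of EIF4G1, spans 371 kb, and each replicate had 4 peaks there, of which 1 pair overlapped. That region (chromosome 1, 21022247 to 21022798) reached 6.99 in replicate 1 and 4.84 in replicate 2, the widest spread between replicates among the members, 5.92 ± 1.52 (SD, n = 2). It lay 88905 bp downstream of the nearest start.

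EIF4A1, the helicase, had a region at each end in 6.18 kb. The one at the start (chromosome 17, 7572548 to 7572844), summit 152 bp upstream, was at 3.83 in replicate 1 and 3.67 in replicate 2, and SENP3 and the readthrough gene SENP3-EIF4A1 also lie within 1 kb of it. The one past the opposite end (7579184 to 7579729) was higher, at 4.37 and 5.23, and CD68 also lies within 1 kb of it. The paralogs EIF4A2 and EIF4A3 had no peak. EIF4E, the cap-binding protein, had a region across its start (chromosome 4, 98928983 to 98929553) at 3.56 and 3.75, with its summit 87 bp downstream of the start in replicate 1 and 139 bp upstream in replicate 2. EIF4G2, which supports cap-independent initiation, had a peak of 5.50 in replicate 1 at 205 bp upstream of its start and none in replicate 2. PABPC1, which binds the poly(A) tail, had a peak of 3.32 in replicate 1 and 1 of 3.02 in replicate 2 at different places, and PABPC4 had none.

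**Figure D2:**
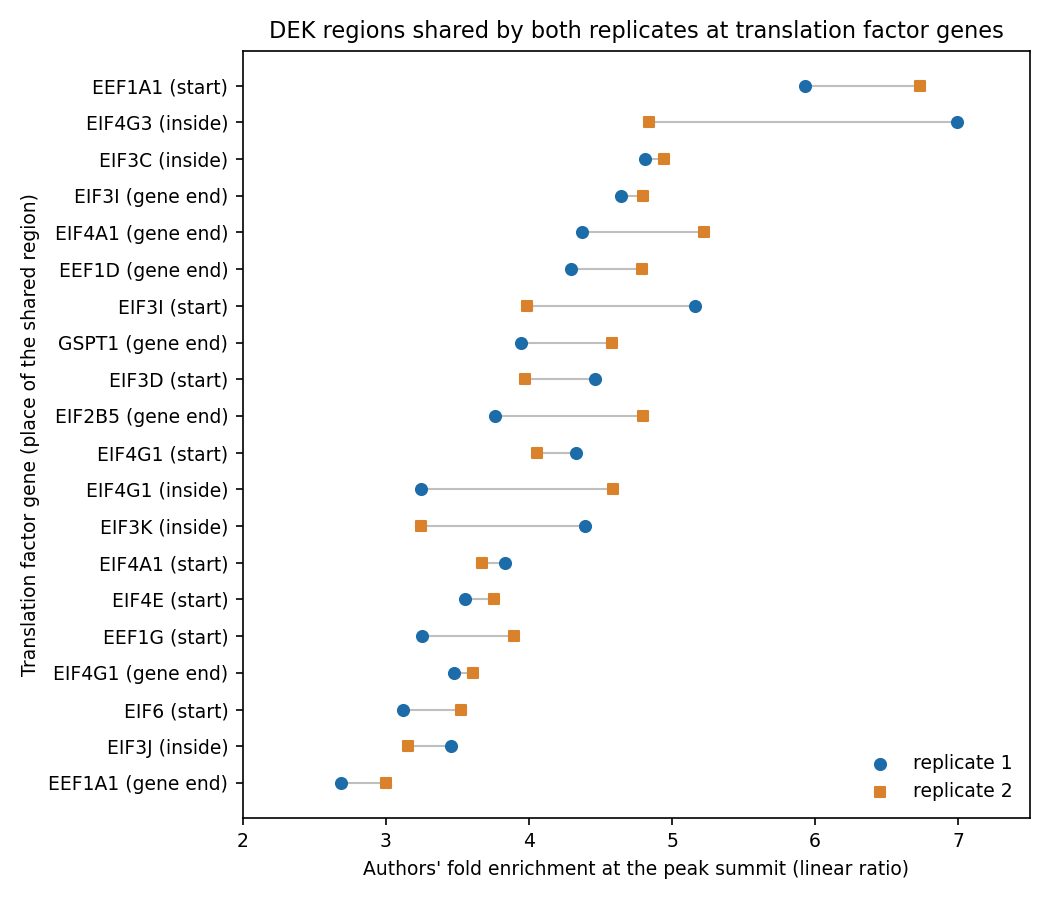
The horizontal axis gives the authors' fold enrichment at the summit in replicate 1 (circles) and replicate 2 (squares) for each of the 20 shared regions at translation factor genes, ordered by mean percentile, with the place of the region in brackets. The EEF1A1 start region has both replicates above 5, and EIF4G3 shows the widest gap, 6.99 and 4.84.

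Among the remaining genes EIF2B5, EIF6 and GSPT1 had shared regions. None of the 3 EIF2 subunit genes did, and EIF2S2 had peaks of replicate 1 alone, up to 3.53. Of the 5 EIF2B genes EIF2B5, the catalytic subunit, had a region 53 bp past the end opposite its start (chromosome 3, 184145274 to 184145518) at 3.76 in replicate 1 and 4.79 in replicate 2. EIF2B5 and EIF2B4 had start peaks of replicate 1 alone, at 3.85 and 4.20, and EIF2B2 1 of replicate 2 alone, at 4.85 and 13 bp from the start. Among the 6 genes for start codon selection and subunit joining, EIF6, which keeps the large subunit from joining early, had a region (chromosome 20, 35285591 to 35286515) at 3.12 and 3.52. Only its replicate 1 peak lay inside the 1 kb flank, and FAM83C is also within 1 kb of it. EIF1, EIF1AX, EIF1B, EIF5 and EIF5B had no peak. GSPT1, the release factor GTPase, had a region 307 bp past its end (chromosome 16, 11867456 to 11868255) at 3.94 in replicate 1 and 4.58 in replicate 2, and its partner ETF1, which reads stop codons, had 1 peak of 2.65 in replicate 2.

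**Figure D3:**
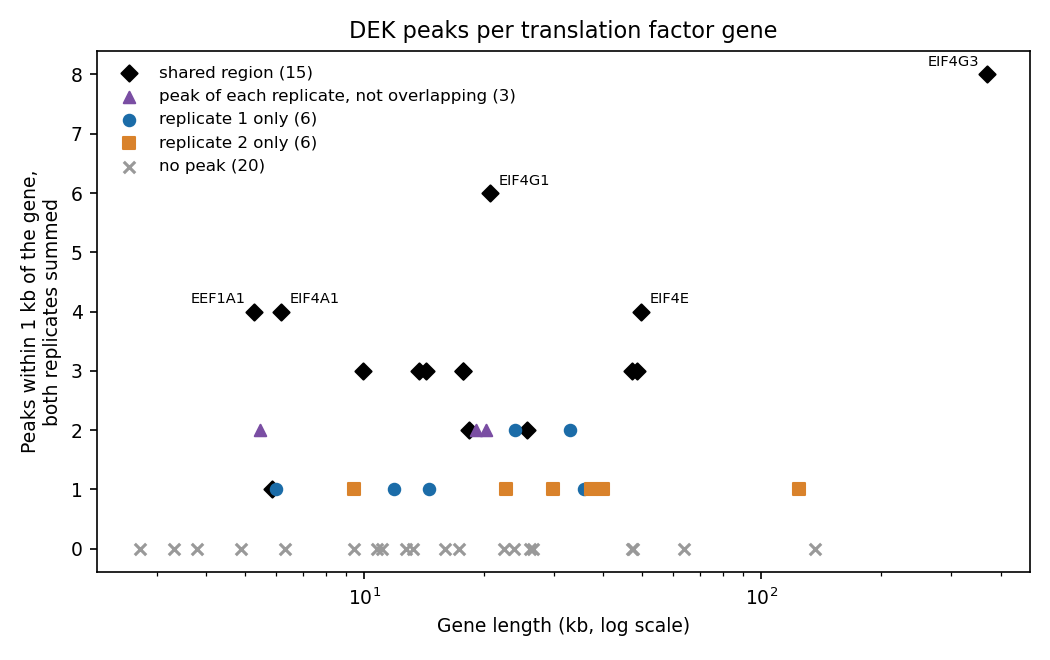
Each symbol is 1 of the 50 genes, with gene length in kb on a log axis and the number of DEK peaks in the gene or its 1 kb flanks, summed over both replicates, on the vertical axis. EIF4G3 has 8 peaks in 371 kb and EIF4G1 has 6 in 20.8 kb, while the 20 genes without a peak range over most of the lengths.

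Annotated starts were available for 39 of the members, of which 8 (20.5%, Wilson interval 10.8 to 35.5) had a shared region within 1 kb of a start, beside 6.58% of 15774 other genes. Counting all peaks of replicate 1, shared or not, 14 of the 39 (35.9%) had a peak there, beside 10.0% of other genes. Counting all peaks of replicate 2 in the same way, 11 (28.2%) had one, beside 12.5%. Counting either replicate, 17 of the 39 had a start peak and 8 a shared region there, beside 16% and 6.58% of other genes. At the end opposite the start, a place looked at after the values had been seen, 6 members (15.4%, 7.25 to 29.7) had a shared region, beside 2.72% of other genes. These were EEF1A1, EIF2B5, EIF3I, EIF4A1, EIF4G1 and GSPT1. The midpoint of both replicates' summits lay upstream of the start at all 8 member start regions (Wilson interval 67.6 to 100). In other genes it did in 72.4% of 1094 cases (69.7 to 75), a share inside the members' interval. At EIF4E the replicates lay on opposite sides, so its side rests on the midpoint. This last comparison was also made after the positions were seen. Of the 8, EIF3I had only its replicate 2 peak, and EIF6 only its replicate 1 peak, within 1 kb of the start.

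**Figure D4:**
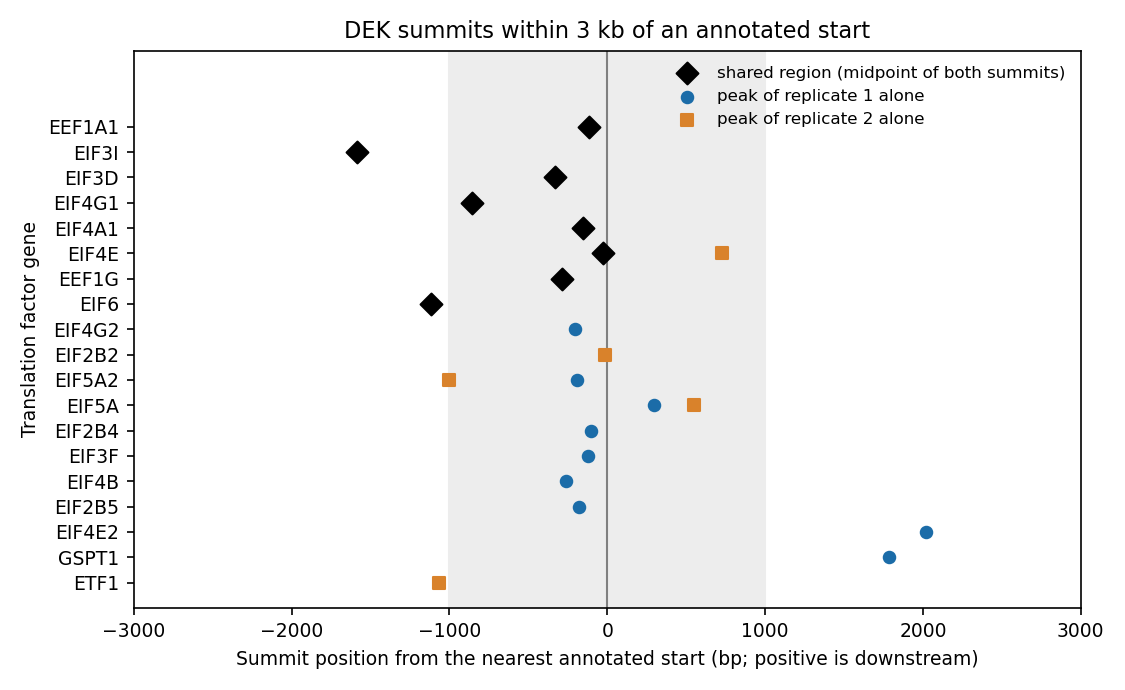
The horizontal axis gives the distance in bp of each summit from the nearest annotated start (negative is upstream) for the members with a summit within 3 kb of it. Diamonds are shared regions, circles and squares are peaks of replicate 1 or replicate 2 alone, and the grey band spans 1 kb on each side. All 8 diamonds, each the midpoint of both replicates' summits, lie upstream, from 26 bp at EIF4E, where the replicates lay on opposite sides of the start, to 1583 bp at EIF3I.

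Region strength was compared next. Taking for each gene the region of highest mean percentile, the median fold enrichment was 4.26 over the 15 members and 4.31 over the 4860 other genes with a region (quartiles 3.74 to 4.76 and 3.86 to 4.83). The replicates differed by a median absolute log2 ratio of 0.17 at the 20 member regions and of 0.17 at all 12590. Their summits were a median of 83 bp apart at member regions and 69 bp apart at all regions, and the pileup at member regions ranged from 13 to 45 fragments. The value was higher in replicate 2 at 13 of the 20 member regions and at 6219 of all 12590. Peaks of members that were in no shared region had lower values, with a median −log10 q of 2.99 in replicate 1 and 3.30 in replicate 2, beside 3.86 and 5.72 for those in shared regions.

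Letters in the promoter windows were counted for the 39 members with an entry, 55 windows in all. The TOP pattern was present in 14 of them (35.9%) and in 17.7% of other genes. Those with it included EEF1A1, EEF2, EIF3D, EIF3F, EIF4B and EIF4A2. Of the 14, 3 had a shared region at a start, beside 7.2% of other genes with the pattern, and of the 25 without it 5 had, beside 6.45% of other genes without it. The E-box CACGTG occurred in 10 members (25.6%), among them EIF4E, EIF4G1, EIF4B and EIF4H, and in 10.9% of other genes. Of the 10, 2 had a shared region at a start, beside 7.71% of other genes with the E-box. Of the 29 members without it 6 had, beside 6.44% of other genes without it. TATAAA occurred in EEF2 and EIF4A2, neither of which had a peak, and in 4.34% of other genes. CG dinucleotides were counted in the 250 bases before and 50 after the start, taking the highest count where a gene had several windows. The median count was 28 in members and 24 in other genes, and the share with a start region was compared by class of this number. It was 0 of 1 member below 10 CG, beside 2.64% of other genes, and 1 of 3 from 10 to below 20, beside 11%. It was 5 of 20 from 20 to below 30, beside 9.2%, and 2 of 15 (13.3%) at 30 or more, beside 5.37%. A match of letters is a description of the reference sequence and not a bound site.

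Other genes of the translation pathway were described in the same way, beside the 24.4% of genes with a shared region in the gene or its flanks and 7.49% at an end given above. Median lengths were 33.4 kb for the synthetases, 34 kb for the regulators and 30.2 kb for the further factors, and of other protein-coding genes from 30 to 100 kb, 30.3% had a shared region. Aminoacyl-tRNA synthetases and their scaffold proteins had a shared region in the gene or its flanks in 8 of 24 genes (33.3%, Wilson interval 18.0 to 53.3) and at an end in 5 (20.8%), SARS1, TARS1, LARS1, RARS1 and AARS1. The highest in that list was CARS1 at 5.30 in replicate 1 and 5.34 in replicate 2, inside the gene. Regulators of translation had 8 of 22 (36.4%, 19.7 to 57.0) and 3 at an end, MTOR, EIF2AK3 and PPP1R15A. MTOR, the kinase that controls TOP mRNAs and the EIF4E-binding proteins, had the highest region of the 3 lists, 5.92 and 5.62, and RPTOR, its partner, had 11 regions in 422 kb. Further initiation and recycling factors had 4 of 18 (22.2%, 9 to 45.2), EIF2D, EEFSEC, DENR and EIF3CL, and 1 at an end, DENR. Within 1 kb of an annotated start, 3 of 19 genes of the synthetase list, 2 of 21 regulators and 1 of 15 further factors had a shared region. The members had 8 of 39 there, and other genes 6.58%.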

How the data were processed

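DEK ChIP-seq peaks of 2 replicates of 786-O cells were analysed from 1 deposited narrowPeak list per library. Per the submitters' processing notes the build was GRCh38 (hg38) and the tools, listed without roles, included MACS2 2.2.7.1, Bowtie2 2.2.5 and cutadapt 1.18. Neither the use of a control library nor the handling of multiply mapping reads is stated. The authors deposited per peak a linear fold enrichment ratio, −log10 p and −log10 q values at the summit, a score that follows −log10 q, and the summit offset in bp. The lowest −log10 q was 1.31 and 1.30. Peaks outside chromosomes 1 to 22 and X, 0.591% and 0.500% of the 2 lists, were left out.

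A shared region was formed wherever a replicate 1 peak and a replicate 2 peak had at least 1 bp in common, and it took the strongest peak of each library and the midpoint of their summits. A gene was called when a shared region overlapped its RefSeq span with 1 kb on each side, or the windows of 1 kb around its ends or starts. Starts came from the RefSeq promoter table, which matched 39 of the 50 genes. The summit pileup is the whole number that gave the deposited p from the fold enrichment, within a relative tolerance of 5e-05. Shares carry 95% Wilson intervals and densities exact Poisson intervals. Python 3.11.15 with numpy 2.4.6, pandas 2.3.3 and scipy 1.17.1 was used, and the overlap code was tested on simulated data. Named in full were members with a shared region at an end, and the highest of the rest. The members and lists were chosen with earlier results of these data known. Alternatives covered the window, peak thresholds, matching of replicates, either replicate alone and assignment to the nearest gene.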

Additional observations from a re-analysis of the deposited data

How the results depend on the processing

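The share of members in the whole gene with its flanks was near that of other genes and changed order with the settings. Over the main count and 10 alternatives, it was above that of other genes in 9. Beside the 15 members, counts were 7 with −log10 q of at least 5 (14.0% against 11.1% of other genes), 1 with a fold enrichment of at least 5 (2% against 2.55%), 10 with 50% reciprocal overlap (20% against 19.9%) and 8 with summits within 100 bp (16.0% against 17.7%). With 1 replicate alone they were 23 to 24, and with a peak of each library, overlapping or not, an alternative chosen after seeing the data, 17. Windows of 3 kb gave 18 (36% against 26.8%), the gene without flanks 13 (26% against 22.0%) and nearest-gene assignment 14 (28% against 22.5%). Beside the 11 members at an end, the same 4 settings of peak threshold and replicate matching gave 4 (8% against 2.81%), 1 (2% against 0.602%), 5 (10.0% against 5.69%) and 6 (12.0% against 4.96%). Replicate 1 alone gave 17 (34% against 10.9%) and replicate 2 alone 15 (30% against 13.5%). Windows of 3 kb gave 14 (28% against 13.7%) and nearest-gene assignment 10 (20% against 5.93%). Beside the 8 at a start, the 4 settings gave 3, 1, 4 and 4 (2.33%, 0.564%, 5.08% and 4.33% of other genes), 1 replicate alone 11 to 14 (12.5% and 10%), windows of 3 kb 8 (20.5% against 10.9%) and nearest-gene assignment 6 (15.4% against 5.5%). The share at ends or starts was above that of other genes in the main count and in each of these 8 alternatives, with as few as 1 member left.

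The density of 5.59 per Mb became 1.86, 0, 3.73 and 3.73 under the 4 settings, beside 2, 0.337, 4.13 and 3.45 in other genes, and 13.7 with either replicate alone, beside 10.6 and 8.41. It counts summits inside spans, so window sizes were not run. The median fold of 4.26, beside 4.31 in other genes, became 4.80, 6.33 (EEF1A1 alone), 4.50 and 4.69 under the 4 settings, beside 4.76, 5.71, 4.35 and 4.32. With replicate 1 alone it was 4.25, beside 4.27, and with replicate 2 alone 4.39, beside 4.16. Windows of 3 kb gave 4.26, beside 4.31, and nearest-gene assignment 4.24, beside 4.32. The order of members and other genes thus changed with the settings. Without olfactory receptor and ZNF genes, 25.1% of other genes were called. No paired analysis was possible because there is only 1 group. The pileup of 13 to 45 fragments limits the precision of each value.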

Other observations

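Many members have pseudogenes that share sequence with the parent gene. RefSeq lists 169 pseudogenes named after 28 of the members, 49 of them after EEF1A1, and 2 of the 169 had a shared region in the gene or its 1 kb flanks, beside 315 of all 16664 pseudogenes (1.89%). Both belong to EEF1A1. EEF1A1P18 (chromosome 11, 65027030 to 65027911) lies with SNX15 at 5.43 in replicate 1 and 5.87 in replicate 2, and EEF1A1P25 (chromosome 3, 138823809 to 138824390) lies with PIK3CB at 4.45 and 5.03. Members with such pseudogenes had a shared region in 8 of 28 cases and those without in 7 of 22. The near-identical pair EIF3C and EIF3CL both had a region inside the gene, EIF3C at 4.81 and 4.94 and EIF3CL at 3.73 and 3.94 (chromosome 16, 28421321 to 28421653). The part of read placement in these values was not tested.

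Of the 35 members without a shared region, 3 lay within 3 kb of one: EIF5A at 1602 bp, ETF1 at 1757 bp and EIF4H at 2463 bp. From windows of 1 kb to 3 kb the share called went from 30% to 36% in members and from 24.4% to 26.8% in other genes. The median distance of the 35 to the nearest shared region was 56.5 kb, given here without that of other genes.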
